A study of Mus musculus with 6 samples.

Results

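The 10 genes described here encode the core of the cytosolic heat shock system of the mouse, and they were taken by symbol from 24391 annotated genes. They are the transcription factor gene Hsf1, the HSP70 genes Hspa1a, Hspa1b and Hspa8, the HSP110 gene Hsph1, the small heat shock protein gene Hspb1, the HSP40 gene Dnajb1, the HSP90 genes Hsp90aa1 and Hsp90ab1, and the HSP90 partner gene Fkbp4. Of the 10, 7 had enough counts to be tested among 12664 genes, and Hspa1a, Hspa1b and Hspb1 did not. RNA was sequenced from mRPMaxKO, a line grown from an RPMax-/- lung tumour of mixed 129/SvJ and C57BL/6 strain, where R and P are known to stand for Rb1 and p53 in this tumour model. All cells came from a polyclonal, puromycin-selected population carrying a doxycycline-inducible lentiviral vector, at under 20 passages, and the treatment text gives 4 days of doxycycline for every library. The comparison was between 3 control libraries and 3 libraries with MAX restored, and the question was what MAX restoration does to the transcriptome of these cells. The same growth and treatment text stands on the control and the MAX restored libraries, and the labels do not say what the vector of the control cells carried or whether the 3 libraries of an arm are separate cultures. The p-values here can therefore speak only for the variation among these 6 samples, part or all of which may be technical, in 1 line.

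Cytosolic chaperones bind unfolded or unstable proteins, and HSP70 and HSP90 use ATP to help them fold. HSP70 works in a cycle in which a J-domain protein such as DNAJB1 delivers the client and HSP110 exchanges the nucleotide, and HSP90 takes over later steps together with co-chaperones such as FKBP4. HSF1 is held inactive in unstressed cells and, upon heat or misfolded protein, forms trimers that bind repeated GAA units in the promoters of these genes. Some members are made at all times (Hspa8, Hsp90ab1), while others are known for induction by stress, most of all Hspa1a, Hspa1b and Hspb1.

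Library totals lay between 10046899 and 11925909 counts, and between 15510 and 16147 genes had a count. Control 1 stood apart from the other controls, with a chi-square per degree of freedom of 8.91 and 10.2 against controls 2 and 3, where the other pairs within a group lay between 1.24 and 1.5, and with 0.996% of its counts in the ribosomal RNA precursor Rn45s, against 0.109% to 0.187% in the other 5 libraries. Rn45s, at 101661 counts in control 1 against 19493 and 10934 in controls 2 and 3, is itself part of the chi-square. Its share of that statistic was not separated. Max, the restored gene, held between 620 and 691 counts in the controls and between 13369 and 15979 with MAX restored. Counts summed over a gene do not show which exons are deleted, and Rb1 (2983 to 3483 counts) and Trp53 (113 to 144 counts) had reads in every library. All 10 neuroendocrine markers examined were tested, 6 higher and 2 lower, with a summed level between 9712 and 9977 CPM in the controls and between 9986 and 10278 CPM with MAX restored (CPM, counts scaled to the library size after TMM). Other cell types' markers were few. The summed immune markers lay between 1.49 and 2.95 CPM in the controls and between 2.41 and 3.32 CPM with MAX restored, with 2 of 6 tested, neither called, and Cd3e at 0 throughout. The summed fibroblast markers lay between 1.67 and 1.88 CPM and between 1.93 and 3.32 CPM, with 1 of 6 tested and called higher. The endothelial markers summed to between 528 and 582 CPM in the controls and between 419 and 454 CPM with MAX restored, with only Vwf of 6 tested, called lower, and Cdh5 and Cldn5 at 0. The alveolar and airway markers, 3 of 6 tested, summed to between 36.8 and 38.8 CPM in the controls and between 35.1 and 41.0 CPM with MAX restored, but all 3 were called. The ciliated cell marker Foxj1 rose from 3.72 ± 0.256 to 8.50 ± 1.39 CPM (SD, n = 3) and the alveolar marker Ager from 1.34 ± 0.313 to 2.64 ± 0.420 CPM, while the surfactant gene Sftpc fell from 31.6 ± 0.640 to 26.0 ± 1.91 CPM. In bulk RNA, fewer cells of a type and less RNA per cell cannot be told apart.

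The members fell into an abundant group of 7 and a near-silent group of 3, Hspb1, Hspa1a and Hspa1b. Stress-inducible genes were in both, since Hsp90aa1, Hsph1 and Dnajb1 are also known to be induced by heat. Per kilobase of exon, Hsp90ab1 stood highest, at 895 ± 16.8 CPM per kilobase in the controls and 812 ± 4.12 with MAX restored (SD, n = 3), rank 7 of all tested genes by mean level. It was followed by Fkbp4 (182 ± 6.58 and 175 ± 3.28) and Hspa8 (128 ± 3.20 and 134 ± 1.74). Hsf1, Hsph1 and Hsp90aa1 came next at similar levels in the controls, 58.1 ± 3.19, 56.3 ± 1.6 and 53.9 ± 2.54 CPM per kilobase, and their control libraries overlapped. With MAX restored the same 3 genes no longer overlapped, at 40.9 ± 1.81, 48.4 ± 1.59 and 54.0 ± 1.87 CPM per kilobase. Dnajb1 was the lowest of the abundant group, at 24.7 ± 0.689 and 31.0 ± 1.2. Hspb1, Hspa1a and Hspa1b were below 0.5 CPM per kilobase in every library.

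**Figure D1:**
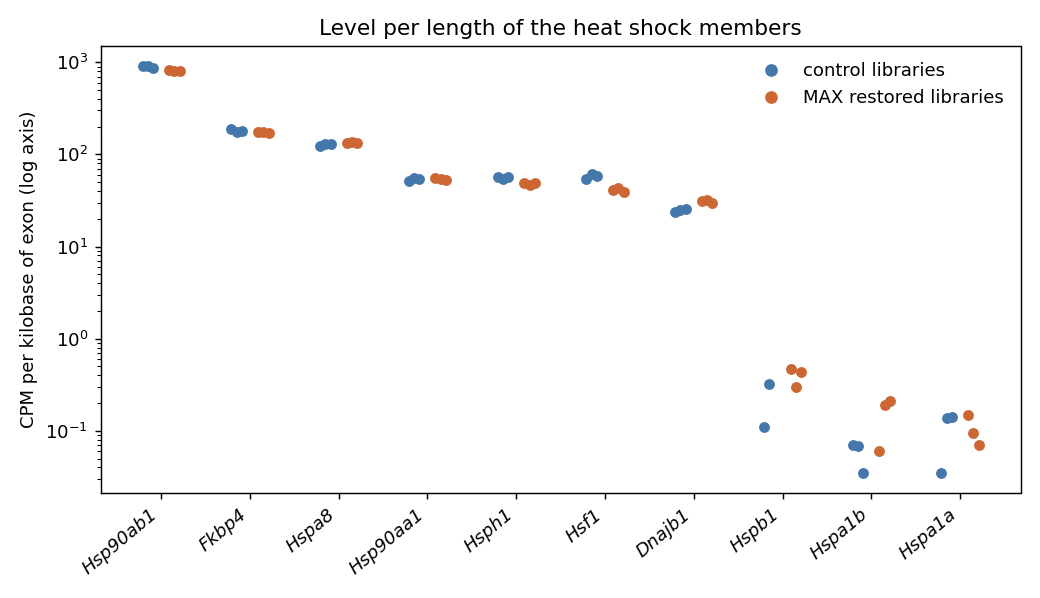
Level of each member as CPM per kilobase of annotated exon (log axis), with 1 point per library, control in blue and MAX restored in orange; the control 3 library of Hspb1, at 0 counts, is not drawn. Hsp90ab1 stands highest, at 895 on average in the controls, and Hspb1, Hspa1a and Hspa1b lie below 0.5 in all libraries.

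The order per length depends on how many reads could be assigned. The counting command in the file headers sets no option for reads with several mapping places, which featureCounts then leaves out, so a transcript that shares stretches with another gene or a pseudogene loses counts. In GENCODE transcripts of GRCm38, 74.8% of the 50-base stretches of the longest Hspa8 transcript also occur in another annotated gene, as do 58.5% of those of Hsp90aa1 but only 4.49% of those of Hsp90ab1. For Hsf1, Hsph1 and Fkbp4 the share was 0%, and for Dnajb1 0.441%. With 100-base stretches the shares were 63.4% for Hspa8, 47.5% for Hsp90aa1 and 0% for Hsp90ab1. The printed levels of Hspa8 and Hsp90aa1 may therefore be too low, and their places relative to Fkbp4, Hsf1 and Hsph1 are uncertain. A change between groups, in contrast, compares the same assignable part of each transcript.

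The heat-inducible HSP70 pair was at the limit of detection in both groups. With libraries given in the order of their numbers here and throughout, Hspa1a held 1, 4 and 4 counts in the control arm against 5, 3 and 2 after MAX restoration. Hspa1b, its neighbour on chromosome 17, held 2, 2 and 1 counts in the controls and 2, 6 and 6 with MAX restored. The groups overlapped for both genes. In mm9 each is a single exon on the minus strand of chromosome 17, Hspa1a from 35106304 to 35109101 and Hspa1b from 35093374 to 35096183. Over the groups, Hspa1a had 9 counts against 10 with MAX restored, a ratio of 1.02 (95% exact binomial interval 0.373 to 2.84), and Hspa1b 5 against 14, a ratio of 2.58 (0.877 to 9.14). These intervals cover counting error only, because they take the sum over each group and leave out variation between libraries. Reads that carry no molecular identifier can also be copies of 1 molecule. A difference was thus not detectable at this depth. The genes are near-identical copies: 66.3% of the 50-base stretches of Hspa1a and 62.3% of those of Hspa1b occur in another annotated gene, mostly in each other, so part of any message would go uncounted.

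The promoters of the pair are shown because they are copies as well and hold a 2-unit heat shock element. Of the 10 members 6 have a promoter window in the RefSeq table (GRCm38.p6, 250 bases before to 50 after the start, 8 windows for 6 genes). Hsf1, Hspa8, Hsp90aa1 and Hsp90ab1 have none, so their promoters were not searched. The Hspa1a and Hspa1b windows were identical at 296 of 300 bases. The 200 bases before each start follow, 5′ to 3′ on the minus strand, Hspa1a at chr17:34972157-34972356 and Hspa1b at chr17:34959239-34959438, with GAANNTTC in capitals.
Hspa1a: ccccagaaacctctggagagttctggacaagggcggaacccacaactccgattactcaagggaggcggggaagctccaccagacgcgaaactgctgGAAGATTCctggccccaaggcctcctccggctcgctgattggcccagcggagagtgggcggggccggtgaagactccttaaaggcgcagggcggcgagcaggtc
Hspa1b: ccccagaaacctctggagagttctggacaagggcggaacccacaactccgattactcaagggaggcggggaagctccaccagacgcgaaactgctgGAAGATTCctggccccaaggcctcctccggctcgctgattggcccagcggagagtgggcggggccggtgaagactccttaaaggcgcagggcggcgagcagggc
In both the element lies from -104 to -97, and 1 of the 200 bases shown differs. GAANNTTC or TTCNNGAA, each its own reverse complement, occurs in 15.1% of all 32851 windows of 300 bases, so a match is a description and not a binding site.

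Hspb1, which encodes the small heat shock protein HSP27 (HSP25 in the mouse), lies on chromosome 5 of mm9 from 136363789 to 136365433 and was also near silent. It held 1, 3 and 0 counts in the control arm against 5, 3 and 4 after MAX restoration, and the CPM values of the groups overlapped. The 0 in control 3 allows up to 0.297 CPM, taking 3 counts as the limit. Over the groups 4 counts stood against 12, a ratio of 2.76 (95% exact binomial interval 0.836 to 11.7). With no filter on low counts edgeR's quasi-likelihood test gave adjusted p = 0.195 for Hspb1, 0.176 for Hspa1b and 0.979 for Hspa1a. Of the Hspb1 transcript 51.6% of the 50-base stretches are shared, mostly with the pseudogene Hsp25-ps1. The Hspb1 window holds 2 copies of the element, shown in capitals within 100 bases of the plus strand at chr5:135887769-135887868.
Hspb1: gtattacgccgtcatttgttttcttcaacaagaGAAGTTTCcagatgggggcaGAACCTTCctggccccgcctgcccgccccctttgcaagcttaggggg

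Hsf1, the factor itself, showed the largest change of the 7 tested members, and it fell. It stood at 111, 123 and 118 CPM in the control arm and at 82.6, 86.2 and 78.9 CPM with MAX restored. Every MAX restored library lay below every control, and the highest of them was more than 20 CPM below the lowest control. The mean went from 117 ± 6.43 to 82.5 ± 3.66 CPM (SD, n = 3), a log2 fold change of -0.51 (SE 0.05, adjusted p = 5.39e-08 in edgeR's quasi-likelihood test with Benjamini-Hochberg adjustment over all tested genes). Among all tested genes 25% had a larger absolute change. Control 1 was the lowest control, log2 -0.13 against the mean of the other 2, which lies in the direction of the MAX restored libraries.

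Hsf1 shares its promoter region with a ribosome biogenesis gene, and the pair fell by nearly the same amount. In the mm9 annotation of the files Hsf1 lies on the plus strand of chromosome 15 from 76307875 to 76331402, with 12 distinct exons. Bop1, which encodes a nucleolar factor for maturation of the large ribosomal subunit, lies on the minus strand from 76283426 to 76307699, so the 2 starts face away from each other 176 bases apart. Bop1 stood at 150, 170 and 164 CPM in the controls and at 112, 109 and 110 CPM with MAX restored. Its log2 fold change was -0.54 (SE 0.05, adjusted p = 1.98e-08 in edgeR's quasi-likelihood test). As with Hsf1, control 1 was the lowest control. The log2 ratio of Hsf1 to Bop1 CPM within a library was -0.46 ± 0.02 in the controls and -0.42 ± 0.07 with MAX restored (SD, n = 3), a difference of 0.03 in which the groups overlapped (exact two-sided permutation p = 0.70, where 0.10 is the smallest possible). Bop1 was singled out after its values were seen. No exon of another annotated gene lay within the span of Hsf1. The 50 nearest tested genes around Hsf1, from 75740165 to 76926744 on chromosome 15, had a median log2 change of 0.04, with 19 higher and 15 lower, and 46 of the 50 had a larger value than Hsf1. Hspa1a and Fkbp4 also face a neighbour whose start is within 1000 bases. That of Hspa1a is the HSP70 gene Hspa1l, 547 bases away, at log2 0.03 (adjusted p = 0.884), and that of Fkbp4 is Gm10069, 126 bases away, at -0.04 (adjusted p = 0.809).

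The 3 tested genes outside the list whose profiles over the 6 libraries lay nearest to that of Hsf1 were Arfrp1, a small GTPase gene of the Golgi, Hirip3, which encodes a histone-binding partner of HIRA, and Kctd13, an adaptor gene of a ubiquitin ligase. Likeness was the Euclidean distance between log2 CPM values centred on each gene's mean, and it was 0.0294, 0.0296 and 0.0518. Their log2 fold changes were -0.53, -0.51 and -0.49. With 6 libraries in 2 groups, such likeness mostly reflects a group difference of equal size.

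Of the 7 tested members 1 rose and 3 fell, a share of 57.1% called, where 63.5% of all tested genes were called. By direction, 31.2% of all tested genes were higher and 32.3% lower. The median log2 fold change of the 7 was -0.06, against 0.00 over all tested genes, and their median absolute change was 0.14 against 0.26. The groups did not overlap in 5 of the 7, against 67.1% of all tested genes. The 7 are those that passed the filter on counts, and Hspa1a, Hspa1b and Hspb1 are not among them.

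**Figure D2:**
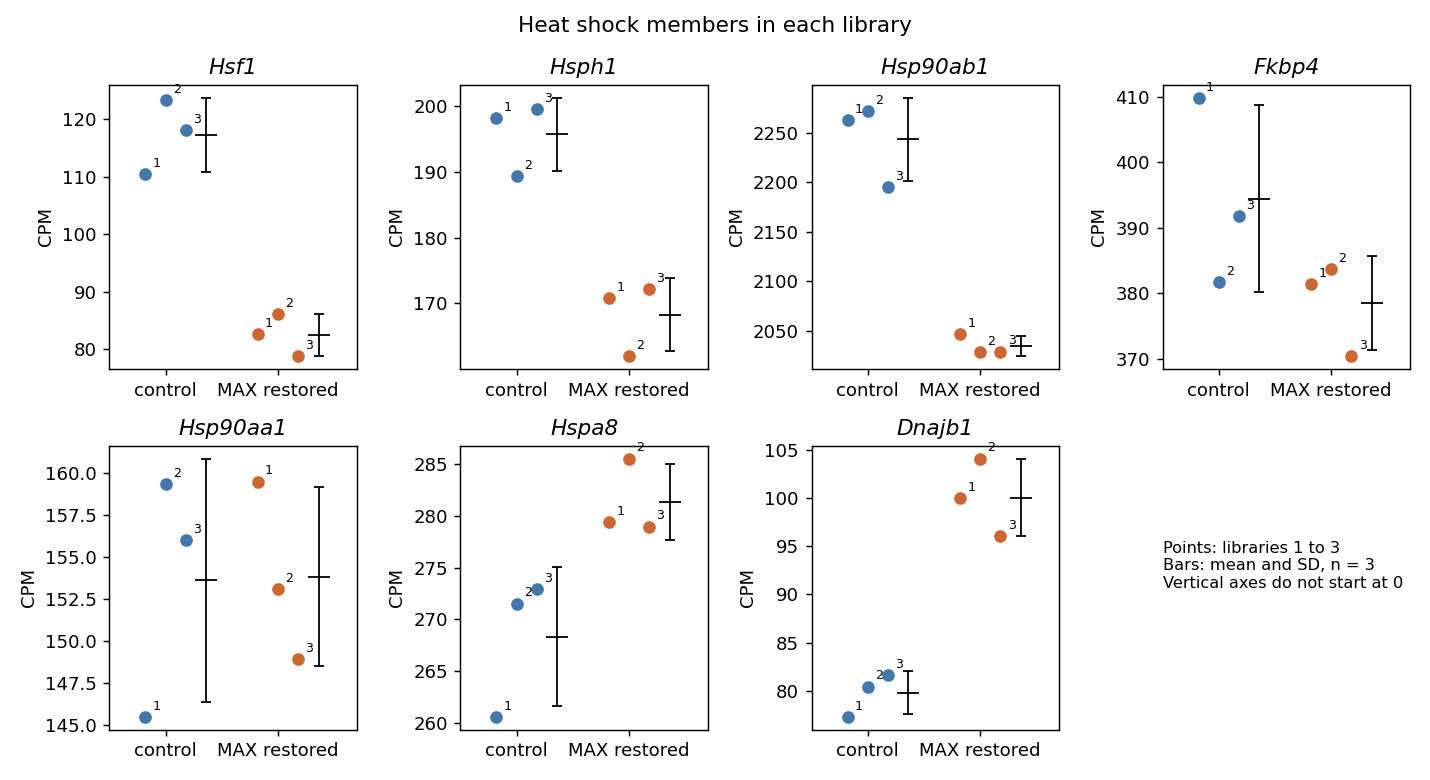
CPM of the 7 tested members in each library (numbered points; control in blue, MAX restored in orange), with mean and SD of 3 libraries as black bars; the vertical axes differ and do not start at 0. Hsf1, Hsph1 and Hsp90ab1 are lower in every MAX restored library, Dnajb1 is higher in each of them, and Hsp90aa1 and Fkbp4 overlap.

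Among the HSP70 machinery, the J-domain gene rose, the exchange factor gene fell and the constitutive HSP70 gene did not pass the test. Hspa8, which encodes the constitutive HSC70, stood at 261, 272 and 273 CPM in the controls and at 279, 286 and 279 CPM with MAX restored. The groups did not overlap, but the log2 difference was 0.07 (95% interval -0.01 to 0.15, adjusted p = 0.129 in edgeR's quasi-likelihood test). Control 1 was the lowest library here too. In mm9 Hspa8 lies on the plus strand of chromosome 9 from 40609356 to 40613282. Hsph1, which encodes HSP110 and lies on the minus strand of chromosome 5 from 150419420 to 150438890, stood at 198, 189 and 200 CPM in the controls and at 171, 162 and 172 CPM with MAX restored. All MAX restored values lay below the controls, a log2 fold change of -0.22 (SE 0.05, adjusted p = 0.000308). Within a library, Hsph1 per length was 2.27-fold below Hspa8 in the controls and 2.76-fold below it with MAX restored, a difference in log2 ratio of -0.29 with no overlap between groups (exact two-sided permutation p = 0.10, the smallest possible, 0.15 adjusted over 6 ratios). The size of this ratio, unlike its change, depends on the shared stretches of Hspa8 given above.

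The Hsph1 promoter is shown because, of the 6 members with a window, it alone holds the E-box CACGTG, the sequence that MYC-MAX dimers are known to bind, and it also holds heat shock elements. Hsf1, Hspa8, Hsp90aa1 and Hsp90ab1 had no window, so whether they hold the E-box was not examined. Binding was not measured here, and any part of the E-box in the fall of Hsph1 was not tested. RefSeq lists 2 starts 21 bases apart. The stretch below runs on the minus strand over chr5:149636329-149636426 and ends 8 bases past the upstream start, with TTCNNGAA and CACGTG in capitals. The second line gives an element with 1 more unit at the same spacing (3-unit), TTC, GAA and TTC each 2 bases apart, at chr5:149636287-149636302.
Hsph1: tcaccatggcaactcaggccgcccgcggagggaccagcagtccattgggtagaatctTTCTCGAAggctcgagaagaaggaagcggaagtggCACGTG
Hsph1 3-unit site: gaTTCTGGAAAGTTCt
Counted from the downstream start the E-box lies from -19 to -14 and the 3-unit element from 16 to 28. CACGTG, which is its own reverse complement, occurs in 7.15% of all windows, and the 3-unit element, searched as TTC, GAA, TTC and as its reverse complement GAA, TTC, GAA, in 0.603%. Each 3-unit element also counts as a 2-unit one.

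Dnajb1 encodes the J-domain protein that delivers clients to HSP70 and stimulates its ATPase, and it was the 1 member that rose. It stood at 77.3, 80.4 and 81.6 CPM in the controls and at 99.99, 104 and 96.0 CPM with MAX restored. The groups were well separated, and the log2 fold change was 0.33 (SE 0.05, adjusted p = 5.19e-06 in edgeR's quasi-likelihood test). Per length, Dnajb1 was 5.16-fold below Hspa8 in the controls and 4.31-fold below it with MAX restored (difference in log2 ratio 0.26, no overlap, exact two-sided permutation p = 0.10, the smallest possible, 0.15 adjusted over 6 ratios). Here too the size of the ratio, unlike its change, depends on the shared stretches of Hspa8. Neither of the 2 RefSeq windows of Dnajb1 holds GAANNTTC, TTCNNGAA or CACGTG.

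The rise of Dnajb1 was no larger than that of the genes around it. Dnajb1 lies on chromosome 8 of mm9 from 86132074 to 86136552, and of its 50 nearest tested genes, between 79774265 and 87356164, 37 were called higher and 2 lower. Their median log2 fold change was 0.33, equal to that of Dnajb1 to 2 decimals, and 25 of the 50 had a larger value. With the 20 nearest genes the median was 0.44. What the stretch has in common was not tested. Around the other called members the neighbours did not shift in 1 direction to that extent: the median was 0.04 for Hsf1 (-0.07 with the 20 nearest), -0.02 for Hsph1 (34 neighbours, since the chromosome ends nearby; 0.03 without control 1 and 0.02 without MAX restored 2) and -0.15 for Hsp90ab1, where 23 of 50 were lower and 11 higher. That last value is close to the log2 fold change of Hsp90ab1 itself, -0.14.

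**Figure D3:**
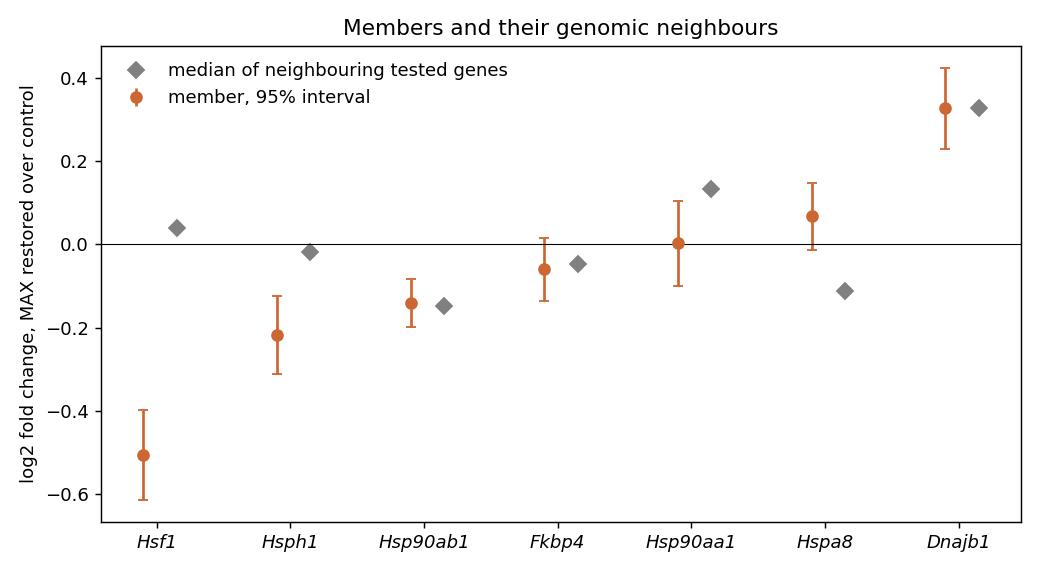
Log2 fold change of each tested member with its 95% interval (orange) and the median of its nearest tested genes on the same chromosome (grey diamonds; 34 genes for Hsph1, 50 for the others). Hsf1 and Hsph1 lie below their neighbours, while Dnajb1 and Hsp90ab1 lie at the level of theirs.

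The HSP90 genes moved less. Hsp90ab1, the constitutive form, on the minus strand of chromosome 17 from 45704727 to 45710210 in mm9, stood at 2263, 2272 and 2195 CPM in the controls and at 2047, 2029 and 2029 CPM with MAX restored. Every MAX restored library was below the controls, by a log2 fold change of -0.14 (SE 0.03, adjusted p = 0.000202 in edgeR's quasi-likelihood test), and 70.3% of tested genes had a larger absolute change. Hsp90ab1 alone held between 63.3% and 65.3% of the CPM of all 10 members, so their sum followed it, from 3453 ± 33.2 to 3200 ± 23.2 CPM (SD, n = 3). That share is of assigned counts, not per length, and may be too high given the shared stretches of Hspa8 and Hsp90aa1. Hsp90aa1, the stress-responsive form, on the minus strand of chromosome 12 from 111929246 to 111934605, stood at 145, 159 and 156 CPM in the controls and at 159, 153 and 149 CPM with MAX restored. The groups overlapped, and the log2 difference was 0.00 (95% interval -0.10 to 0.11, adjusted p = 0.969). Its sign turned without control 1 (-0.04) and without MAX restored 1 (-0.02).

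Within a library, Hsp90ab1 per length stood 16.6-fold above Hsp90aa1 in the controls and 15-fold above it with MAX restored. The log2 ratio of Hsp90aa1 to Hsp90ab1 was -4.14, -4.02 and -4.00 in the controls and -3.87, -3.91 and -3.95 with MAX restored, so the groups did not overlap and the ratio was 0.14 higher with MAX restored (exact two-sided permutation p = 0.10, the smallest possible, 0.15 adjusted over 6 ratios). The size of the ratio, unlike its change, depends on the shared stretches of Hsp90aa1 given above.

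Fkbp4 encodes FKBP52, an immunophilin that joins HSP90 on steroid receptors, and lies on the minus strand of chromosome 6 from 128380125 to 128388649 in mm9. It stood at 410, 382 and 392 CPM in the controls and at 381, 384 and 370 CPM with MAX restored. Control 1 was the highest library, the groups overlapped, and the log2 difference was -0.06 (95% interval -0.14 to 0.02, adjusted p = 0.161 in edgeR's quasi-likelihood test). Relative to Hsp90ab1 per length, its log2 ratio went from -2.30 ± 0.06 to -2.22 ± 0.03 (SD, n = 3; no overlap, exact two-sided permutation p = 0.10, the smallest possible, 0.15 adjusted over 6 ratios). Of the other ratios computed, that of Hspa1a plus Hspa1b to Hspa8 (exact two-sided permutation p = 0.20) and that of Hspa1a to Hspa1b (p = 0.50) overlapped between groups and rest on the few counts given above. The Fkbp4 window holds 1 element, shown in capitals within 130 bases of the minus strand at chr6:128438707-128438836.
Fkbp4: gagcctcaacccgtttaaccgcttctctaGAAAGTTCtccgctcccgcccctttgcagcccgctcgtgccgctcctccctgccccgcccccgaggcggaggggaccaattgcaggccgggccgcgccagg

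The wider lists of chaperone and co-chaperone genes likewise went both ways. Not every gene in them encodes a cytosolic chaperone, as the descriptions of Fkbp8, Dnajb13 and Hspb11 below show. Of 72 further genes in 5 lists 63 were tested, and 14 were higher and 28 lower, 66.7% called, and their median log2 change was -0.11. Over all tested genes 63.5% were called, 31.2% higher and 32.3% lower, so the share called lay near that background here. By direction the 63 leaned to lower, 28 against 14, where all tested genes were split nearly evenly. This lean was not tested. The counts of each list are to be read against the same shares. In the list of heat shock factors and their binding partners all 4 tested of 7 were called. Hsf2, a factor that can form mixed trimers with HSF1, fell (log2 -0.29, from 98.8 ± 7.26 to 80.9 ± 2.48 CPM; SD, n = 3), as did Hsbp1l1 (-0.40). Hsf4, the factor of the lens, rose (0.36, from 19.5 ± 3.03 to 25.1 ± 1.66 CPM), as did Hsbp1, whose product binds the HSF1 trimer (0.30). Hsf5, too low to be tested, held 2, 0 and 0 counts in the controls and 7, 5 and 1 with MAX restored, so the groups overlapped. The ratio of the sums, 2 against 13, was 5.98 (95% exact binomial interval 1.35 to 54.6, counting error only, without the variation between libraries). Both risers lie on chromosome 8, where their 50 nearest tested genes had medians of 0.10 for Hsf4 and 0.07 for Hsbp1.

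Among HSP70 relatives and exchange factors 3 of 15 were higher and 7 lower (66.7% called, median -0.11). Bag3, an exchange factor gene of chaperone-assisted autophagy and a known HSF1 target, stood at 39.7, 42.2 and 40.02 CPM in the controls and at 65.6, 62.4 and 69.4 CPM with MAX restored. Its values did not overlap between groups, and the log2 fold change of 0.69 (SE 0.06, adjusted p = 2.88e-09 in edgeR's quasi-likelihood test) exceeded in size that of every tested member. Hspa4l, a relative of Hsph1 in the HSP110 family, rose by log2 0.61 (SE 0.04), from 226 ± 4.47 to 344 ± 2.71 CPM (SD, n = 3), whereas Hsph1 fell. The neighbours of these 2 genes had medians of -0.06 and 0.04. St13, which encodes the HSP70-interacting protein HIP, fell (-0.21), as did the exchange factor gene Bag4 (-0.21). Bag4 lies on chromosome 8 as well, but its 50 nearest tested genes had a median of -0.04, with 11 higher and 21 lower.

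In the list of J-domain genes 3 of 16 were higher and 6 lower (56.2% called, median 0.03), and without control 1 the higher ones numbered 5. Dnajc2, whose product sits on the ribosome, fell by log2 -0.73 and the neuronal gene Dnajb2 by -0.43. Dnaja2, an HSP70 partner, rose by 0.24 and Dnajb13, a gene of motile cilia and sperm, by 1.42 from a level of 1.89 ± 0.445 to 5.08 ± 0.763 CPM (SD, n = 3). The ciliated cell marker Foxj1 rose with it (log2 1.20, adjusted p = 2.50e-06 in edgeR's quasi-likelihood test), and its part in the rise of Dnajb13 was not tested. Dnaja2 lies on chromosome 8, where 40 of its 50 nearest tested genes were called higher, with a median of 0.41. It spans 88061539 to 88079170 in mm9, near the stretch around Dnajb1 that ends at 87356164. How many neighbours Dnaja2 and Dnajb1 share was not counted.

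HSP90 co-chaperone genes were higher in 6 of 24 and lower in 11 (70.8% called, median -0.11). The 4 with the smallest p were Aarsd1 (log2 -0.65), the R2TP helicase gene Ruvbl2 (-0.52), Fkbp8, an immunophilin gene of mitochondria (0.40), and the myosin chaperone gene Unc45a (0.35). Fkbp8 also lies on chromosome 8, and the median of its neighbours was 0.43, with 34 of 50 higher. At an adjusted p under 0.01 the lower co-chaperone genes numbered 7. Of 10 further small heat shock protein genes 4 were tested and 2 fell, Hspb6 (-0.35), whose groups overlapped, and Hspb11 (-0.38), which encodes an intraflagellar transport protein. Hspb8, the partner of BAG3, stood at log2 -0.11 (adjusted p = 0.0541), and Cryab at 0.14 (adjusted p = 0.435). Without MAX restored 3 only 1 of the list was lower.

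The chaperones of mitochondria and the endoplasmic reticulum give the same families in other compartments. Of 10 such genes 1 was higher and 6 lower, and their median log2 change was -0.22. That is 70% called, against 63.5% of all tested genes (31.2% higher and 32.3% lower). The mitochondrial HSP70 gene Hspa9 fell from 660 ± 11.3 to 404 ± 7.09 CPM (SD, n = 3; log2 -0.71, SE 0.03), while its cytosolic counterpart Hspa8 stood at 0.07. The mitochondrial chaperonin genes Hspd1 (-0.60) and Hspe1 (-0.84) fell as well, and Grpel2, an exchange factor gene for mitochondrial HSP70, rose (0.42). With control 1 left out 2 of the 10 were higher. The organelle genes above are all mitochondrial. Of the endoplasmic reticulum genes only Hsp90b1 was called, and it fell (-0.20). Hspa5 (log2 -0.02, adjusted p = 0.546 in edgeR's quasi-likelihood test), Hyou1 (-0.06, adjusted p = 0.122) and Hspa13 (0.15, adjusted p = 0.0639) did not pass the threshold. The difference between compartments was not tested.

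**Figure D4:**
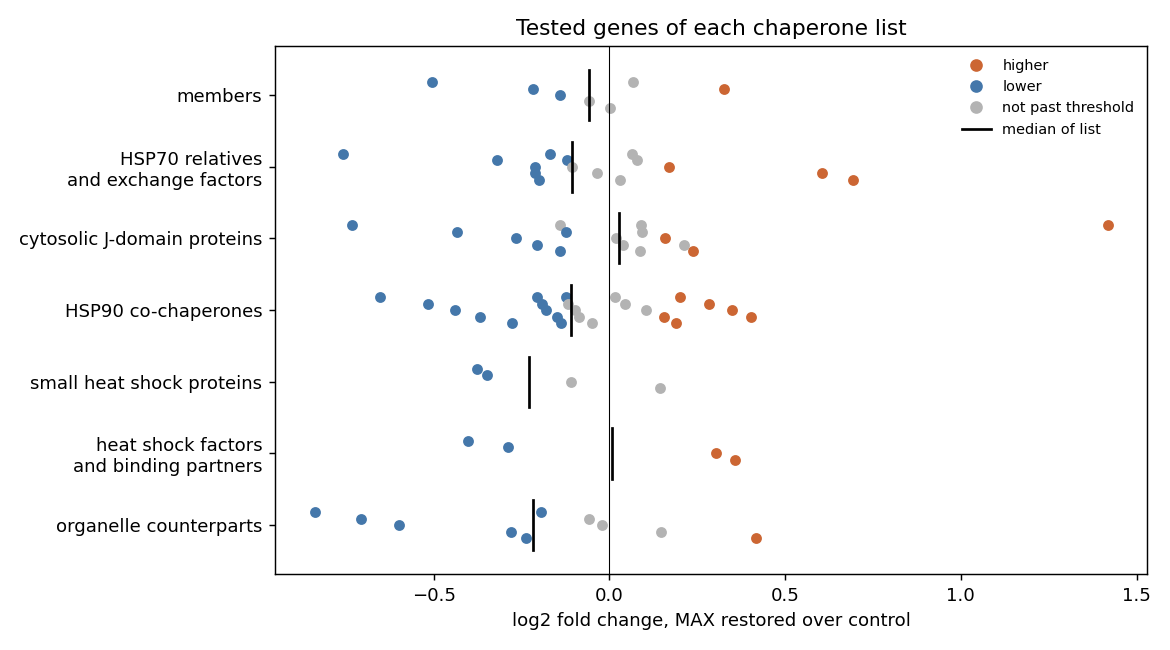
Log2 fold change of every tested gene of the members and of 6 other chaperone lists (orange higher, blue lower, grey not past the adjusted p threshold of 0.05), with the median of each list as a black line. Each list with at least 10 tested genes holds genes called in both directions, and the median of the organelle list, -0.22, lies below that of the members, -0.06. The organelle list joins mitochondrial genes with those of the endoplasmic reticulum, of which only Hsp90b1 was called.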

How the data were processed

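Each library came as its own list of unnormalized read counts per gene, as deposited. Per the submitters' processing notes the tools were bcl2fastq 1.8.4, STAR 2.5.2a and Subread 1.6.0, on mm9. Per the file headers the authors counted with featureCounts without strand over UCSC mm9 exons, with no option for reads that map to several places. Libraries hold no known added standard, so changes are relative to the other transcripts.

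Groups came from the labels. Genes were kept by filterByExpr of edgeR 4.0.16 (minimum count 10, R 4.3.3), scaled by TMM and tested with the quasi-likelihood test, group only, two-sided, at an adjusted p of 0.05. Standard errors are the coefficient over the square root of F. Ratios within a library had exact permutation tests over 6 libraries. Neighbours were the 25 nearest tested genes on each side by mm9 position, leaving out genes annotated over more than 5000000 bases. Shared stretches and promoters came from GENCODE M21 and RefSeq, both GRCm38, and no coordinate was converted.

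Members and lists were chosen with earlier results of these data known. Genes named outside the members were up to 4 of each list with the smallest p past the threshold, the 3 most like Hsf1, and Max, Rb1 and Trp53 as label checks. Hspb8, Cryab, Hsf5, Bop1, the endoplasmic reticulum genes and the cell type markers named were chosen after their values were seen. Alternatives were a stricter threshold, other scalings or filters, voom in limma 3.58.1, DESeq2 1.42.0, a replicate block, and each library left out. The scripts were tested on simulated data. No pair of replicates lay within sampling noise.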

Additional observations from a re-analysis of the deposited data

How the results depend on the processing

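The same 4 members were called in the same direction under all 13 refits (RLE scaling, library totals, no filter, at least 1 CPM in 3 libraries, DESeq2, limma voom, a replicate block and each of the 6 libraries left out), and the other 3 in none. The range over these was -0.55 to -0.47 for Hsf1, -0.24 to -0.19 for Hsph1, -0.16 to -0.13 for Hsp90ab1 and 0.30 to 0.36 for Dnajb1. Hsp90aa1 changed sign around 0: it was -0.0002 with library totals, -0.0047 with no filter, and between -0.0364 and 0.0311 with a library left out. The further 72 chaperone genes gave 11 to 17 higher and 21 to 29 lower over all alternatives. With no filter these counts include genes too low for the main test, and the list of heat shock factors had 3 higher in place of 2. Medians of neighbours depended on the number taken: with 20 genes that of Hspa8 was 0.28 in place of -0.11.

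The counts gave no sign that the replicate numbers in the titles pair the libraries, which does not settle whether libraries of the same number were handled together. Correlations of deviations from the group means were 0.00351, 0.0355 and -0.0241 for numbers 1, 2 and 3, and control 1 correlated best with MAX restored 3 (0.0635). With the replicate block 1 member was higher and 3 lower, as without it; 14 further genes were higher and 27 lower, and 2 organelle genes were higher in place of 1. At this depth the 16 to 19 counts per gene of Hspa1a, Hspa1b and Hspb1 over 6 libraries leave changes within their intervals undetected.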
